A study of Mus musculus with 8 samples.

Results

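The genes described are those that license replication origins: Mcm2, Mcm3, Mcm4, Mcm5, Mcm6 and Mcm7, which encode the ring of the replicative helicase, with Mcm10, Cdc6, Cdt1 and Gmnn. They were chosen by gene symbol, 10 of 22065 named genes in the count table, and 10 of 10 passed the filter on low counts. RNA-seq was done on HSCs of C57BL/6 mice 8 to 10 weeks old, 4 libraries labelled Mitol KO and 4 labelled Control, each from 100 sorted cells. The sorted fraction was CD150+ CD48- EPCR+ and negative for lineage markers, and the study's definition of these HSCs also requires c-Kit, the product of Kit. Per the study's methods, the KO mice were Mitol Flox/Flox; MX1-cre +/−, in which an interferon-driven Cre is switched on by injected Poly:IC. Controls were Mitol Flox/Flox; MX1-cre −/− littermates given the same Poly:IC, so that both groups carried the floxed allele and the interferon stimulus, and the cells were taken 1 week later. MX1-cre is active in blood cells of every lineage and in other interferon-responsive cells, so the deletion was not limited to HSCs. In these data all 10 genes had a log2 fold change above 0 in Mitol KO HSCs, between 0.59 for Mcm6 and 1.21 for Mcm10. Of them, Mcm4, Mcm5, Mcm10, Cdc6 and Gmnn, 5 of 10, passed an adjusted p of 0.05, against 4.68% of all tested genes called higher, and 0 of 10 were called lower, against 3.75%.

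Licensing is the step that marks where DNA replication may begin. In G1 phase the origin recognition complex (ORC) recruits CDC6, and CDC6 and CDT1 then load MCM2 to MCM7 onto DNA as a ring that stays inactive until S phase. Geminin, the product of Gmnn, binds CDT1 and prevents the loading of new rings once S phase has begun, and MCM10 helps to turn the loaded rings into moving helicases together with CDC45 and the GINS complex. Many of these genes are transcribed under E2F factors as cells leave quiescence. HSCs are mostly quiescent, and quiescent cells hold fewer licensed origins than dividing ones. Low MCM levels have been described in aged HSCs, where they go with replication stress. The products of Cdt1 and Gmnn are best known for their opposite oscillation through the cell cycle, which is set largely by protein degradation, a layer that read counts do not show.

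Counts on named genes summed to between 7214935 and 12398138 per library. Normalized read counts were obtained by scaling each library with its DESeq2 size factor. Log2 fold changes, standard errors and adjusted p-values come from the quasi-likelihood test of edgeR, adjusted by Benjamini-Hochberg over 16444 genes, where 1386 genes, 8.43%, were past an adjusted p of 0.05. Marchf5, the gene that encodes MITOL, was at 276, 232, 308 and 281 normalized counts in Mitol KO replicates 1 to 4 and at 299, 312, 333 and 262 in control replicates 1 to 4. Its groups overlapped (log2 fold change −0.15, standard error 0.13, edgeR adjusted p = 0.498), and counts over the whole gene do not check the deletion. Of the HSC markers, Procr, which encodes EPCR, lay between 387 and 719 normalized counts over the 8 libraries and did not pass the threshold (log2 fold change −0.34, edgeR adjusted p = 0.179). Slamf1, which encodes CD150, lay between 413 and 669 in Mitol KO and 299 and 409.7 in control libraries, without overlap (log2 fold change 0.56, edgeR adjusted p = 0.0501). Of the other 6 genes of this list, Kit, which is part of the gate, and Hlf were lower in Mitol KO HSCs, with log2 fold changes of −0.75 (edgeR adjusted p = 0.00705) and −0.79 (edgeR adjusted p = 0.00381). Ly6a, at 0.76 (edgeR adjusted p = 0.0605), and Mecom, Fgd5 and Mllt3, between −0.13 and −0.09, were not called. Cd48, the marker gated against, was at 22.2 to 63.4 in Mitol KO and 4.49 to 21.7 in control libraries (log2 fold change 1.72, edgeR adjusted p = 0.0450, called in 2 of the 8 fits without one library). The labels do not say whether the libraries of a group came from separate mice, so p-values measure the spread between these libraries, which may in part be technical. In such bulk libraries, a larger share of cells expressing a gene and more RNA per expressing cell cannot be told apart.

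As the 10 genes are often named among genes under common control in the cell cycle, their promoters were read for motifs of cell cycle genes, in a window from 250 bases before to 50 bases from the annotated start (GRCm39, GENCODE vM39). The E2F core was searched as TTCCCGC or TTGGCGC on both strands. It was found in 6 of 10 licensing promoters (60.0%) and in 1384 of 12235 promoters of tested protein-coding genes (11.3%). The 6 were those of Mcm3, Mcm4, Mcm5, Mcm6, Cdc6 and Cdt1. The CCAAT box, CCAAT on either strand, was in 8 of 10 licensing promoters and in 39.4% of tested promoters. The CHR element, searched as TTTGAA, which marks many G2/M genes, was in 1 of 10, that of Mcm2, and in 13.5% of tested promoters. The licensing genes are textbook E2F targets, so this share describes the members and is no independent finding, and a match is not a bound site. The 30 bases around E2F cores of each of these 6 promoters are given 5′ to 3′ on the strand of the gene, with the cores in capitals, because they are what these promoters share.
Mcm3, chr1:20890488-20890517, minus strand: GCGGGAAaacttgggaagttTTGGCGCCAA
Mcm4, chr16:15455469-15455498, minus strand: cggccccgggtTTCCCGCcaaaacgcaatc
Mcm5, chr8:75835969-75835998, plus strand: gctaGCGCCAAgaactttcGCGCCAAaacg
Mcm6, chr1:128287533-128287562, minus strand: ggcgtatgcttTTGGCGCgaaaagtgcgtg
Cdc6, chr11:98798425-98798454, plus strand: aaaaactacacTTCCCGCcaggctttacgg
Cdt1, chr8:123294766-123294795, plus strand: gaatccGCGGGAActacctttTTGGCGCca

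The cores of Mcm3 and Cdt1 lay between 20 and 49 bases from the start, in annotated exons, and the pair in Mcm5 began 167 and 152 bases before it. Mcm6 and Cdc6 each held 1 more core outside the bases shown, 36 bases before the start and 42 bases from it. In Mcm3, TTGGCGC was found on both strands at overlapping positions, so that these matches share bases. The promoter of Mcm10, the gene with the highest log2 fold change of the 10, held neither letter string, nor did those of Mcm2, Mcm7 and Gmnn. The 120 bases before the Mcm10 start are given for contrast, with a CCAAT box in capitals, since they hold that box and no E2F core as spelled here.
Mcm10, chr2:5017630-5017749, minus strand: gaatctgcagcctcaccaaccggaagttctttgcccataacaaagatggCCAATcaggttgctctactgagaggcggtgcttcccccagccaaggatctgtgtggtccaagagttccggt

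**Figure D1:**
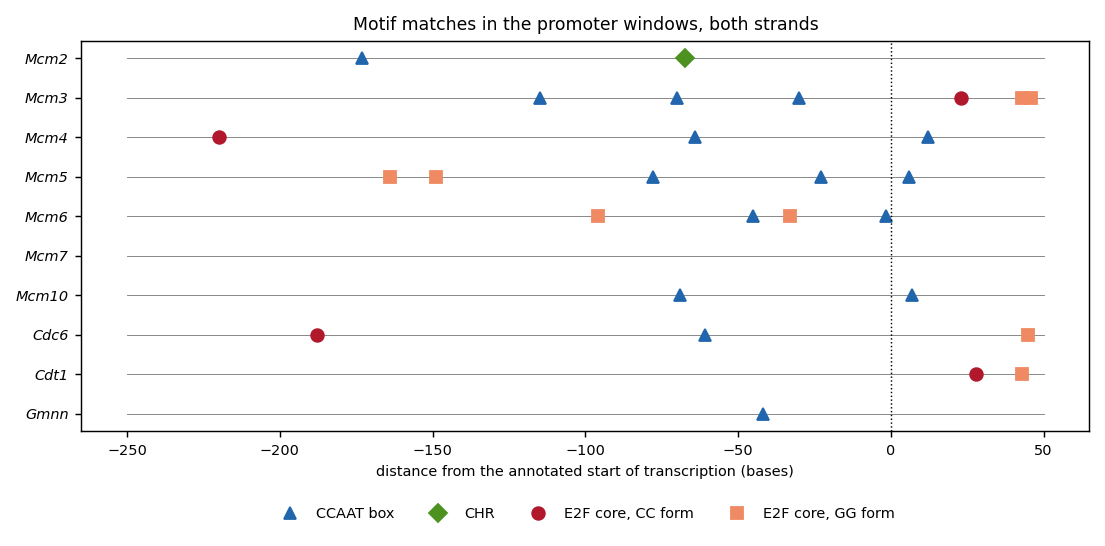
Position of each motif match in the 10 promoters, in bases from the annotated start of transcription (x axis), one gene per line, both strands together. E2F cores are in 6 of the 10 windows and CCAAT boxes in 8, and the line of Mcm7 is empty.

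The helicase ring comes first. Mcm2 was at 4858, 5505, 3404 and 2575 normalized counts in Mitol KO replicates 1 to 4 and at 3070.1, 2221, 2365 and 1275 in control replicates 1 to 4. The first 3 Mitol KO libraries were above every control library, and replicate 4 was within the control range. The log2 fold change of 0.85 (standard error 0.26) was not past the threshold (edgeR adjusted p = 0.0575). Mcm5, the subunit next to MCM2 at the gate through which DNA enters the ring, was at 4665, 5171, 2938 and 2322 in Mitol KO replicates and at 2673, 2048, 1923 and 1184 in control replicates. It rose by 0.93 on the log2 scale (standard error 0.26, edgeR adjusted p = 0.0457), with 3 of 4 Mitol KO libraries above all controls. Mcm4, which with MCM6 and MCM7 forms the part of the ring that has helicase activity on its own, was at 2642, 2728, 1722 and 1491 in Mitol KO replicates and at 1525, 1288, 1148 and 821 in control replicates. It rose by 0.83 (standard error 0.21, edgeR adjusted p = 0.0339), and only the lowest Mitol KO library lay below the highest control library. Over the 6 subunits the ratio of group means ran from 1.53 for Mcm6 to 1.93 for Mcm5.

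The other 3 subunits did not pass the threshold. Mcm3 was at 4297, 4759, 2763 and 2288 in Mitol KO replicates 1 to 4 and at 2854, 2274, 2199 and 1693 in control replicates 1 to 4. Mcm6 was at 4133, 4480, 2949 and 2301 in Mitol KO replicates and at 3023, 2329, 2189 and 1540.1 in control replicates. For both genes, 2 of 4 Mitol KO libraries were above every control library, and replicates 3 and 4 lay among the controls. Their log2 fold changes were 0.63 for Mcm3 (standard error 0.21, edgeR adjusted p = 0.0866) and 0.59 for Mcm6 (standard error 0.21, edgeR adjusted p = 0.105). Mcm7 was at 2491, 2598, 1701 and 1251 in Mitol KO replicates and at 1652, 1166, 1318 and 1077 in control replicates, with 3 of 4 Mitol KO libraries above all controls. Its log2 fold change was 0.61 (standard error 0.21, edgeR adjusted p = 0.0849). Intervals of 2 standard errors around these 3 changes ran from 0.16 to 1.05 in all, so that none spanned 0. These intervals are not adjusted for the number of genes. Of all tested genes, 13.6% were higher at an unadjusted p under 0.05 in edgeR's test. Mcm7, on chromosome 5 of GRCm39 from 138162844 to 138170684, shares 348 exonic bases with Ap4m1 and 344 with Cops6, both on the other strand, and contains a cluster of microRNAs. Whether the counting used strand is not stated, so reads in the shared bases cannot be assigned from these counts.

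**Figure D2:**
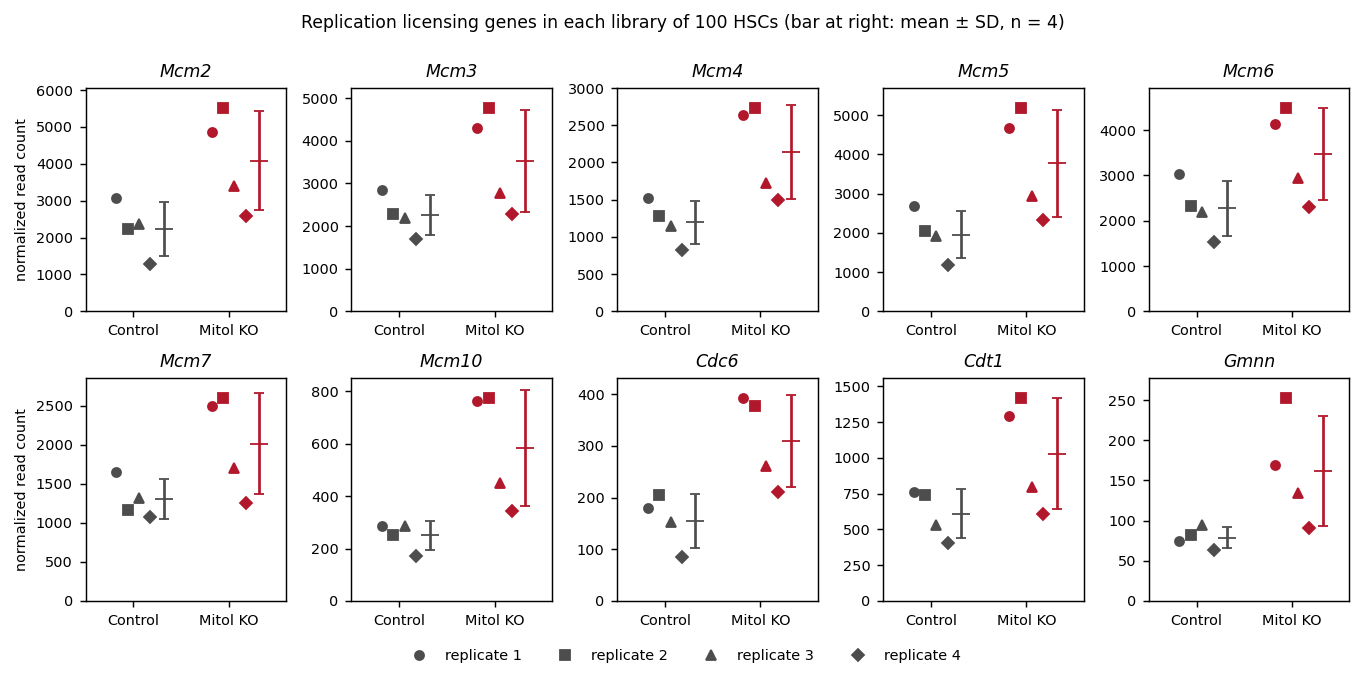
Normalized read counts (y axes, from 0) of the 10 licensing genes in 4 control and 4 Mitol KO libraries, one symbol shape per replicate number, with mean ± SD beside the points. In each panel Mitol KO replicates 1 and 2 are the highest points, and Mitol KO replicate 4 and control replicate 4 are the lowest of their groups.

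Of the loading factors and their inhibitor, Cdc6 and Gmnn passed the threshold and Cdt1 did not. Cdc6, the ATPase that joins ORC to the MCM ring, was at 393, 377, 261 and 211 normalized counts in Mitol KO replicates 1 to 4 and at 179, 205, 153 and 84.4 in control replicates 1 to 4. The groups did not overlap, and Cdc6 rose by 0.99 on the log2 scale (standard error 0.26, edgeR adjusted p = 0.0397). Cdt1, its partner in loading, was at 1295, 1419, 799 and 611 in Mitol KO replicates and at 761, 742, 533 and 409 in control replicates. Mitol KO replicate 4 was below 2 of the controls. The log2 fold change was 0.74 (standard error 0.26, edgeR adjusted p = 0.0917). Gmnn was at 169, 253, 134 and 91.0 in Mitol KO replicates and at 75.2, 81.9, 94.2 and 62.9 in control replicates. It rose by 1.02 (standard error 0.28, edgeR adjusted p = 0.0434), with 3 of 4 Mitol KO libraries above every control. Gmnn was also the gene with the fewest reads, down to 57 raw counts in one library, and 573 of its exonic bases lie over the antisense lncRNA Gm56584.

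Mcm10 had the highest log2 fold change of the 10. It was at 766, 775, 452 and 342 in Mitol KO replicates and at 287.5, 252, 288 and 173 in control replicates, and the lowest Mitol KO library was above the highest control. Mcm10 rose by 1.21 (standard error 0.25, edgeR adjusted p = 0.0179), a ratio of group means of 2.33. Mcm10 and Cdc6 were the 2 of 10 genes whose Mitol KO libraries all lay above all controls, against 8.17% of the tested genes, or 15.4% with no overlap in either direction. The median log2 fold change of the 10 genes was 0.84, and that of all tested genes was −0.02. All 10 had a log2 fold change above 0, against 47.7% of the tested genes.

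How many of the 10 were called depended on single libraries. Without Mitol KO replicate 4, 10 of 10 were past the threshold of edgeR's test, where 8.77% of all tested genes were called higher. Without Mitol KO replicate 2, control replicate 2 or control replicate 4, 0 of 10 were, where 1.43%, 0.995% and 1.6% of all tested genes were called higher. In those fits 8, 10 and 10 of the 10 were higher at an unadjusted p under 0.05, as were 10.7%, 11.2% and 11% of all tested genes. Without Mitol KO replicates 1 or 3 or control replicates 1 or 3 the numbers were 1, 2, 4 and 1, beside 1.84%, 1.85%, 4.64% and 2.48% of all tested genes called higher. Over the 8 fits on 7 libraries Mcm10 was called in 5, Mcm4 in 3, Mcm2 and Mcm5 in 2, and each of the other 6 genes in 1. The log2 fold change was above 0 in every fit for every member. With DESeq2, 8 of 10 were called, Mcm2 and Cdt1 being the others (DESeq2 adjusted p = 0.0613 and 0.132), where 8.19% of tested genes were called higher. With limma-voom 4 of 10 were called (4.47% of tested genes), with RLE size factors 5 (5.0%), with no filter on low counts 5 (3.47%) and with the replicate number as a block 10 (5.82%).

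The 10 genes had much the same highest and lowest libraries in the Mitol KO group, and the same lowest library among the controls. Mitol KO replicate 4 was the lowest Mitol KO library for 10 of 10 genes, and control replicate 4 the lowest control library for 10 of 10. Replicate 2 was the highest Mitol KO library for 9 of 10 genes, with Cdc6 highest in replicate 1. The highest control library was replicate 1 for 7 genes, replicate 3 for 2 and replicate 2 for 1. The mean of the 10 centred log2 profiles was 0.77 and 0.90 in Mitol KO replicates 1 and 2, 0.18 in replicate 3 and −0.19 in replicate 4. In control replicates 1 to 4 it was −0.07, −0.29, −0.36 and −0.94. Mitol KO replicate 4 thus lay below control replicate 1. Within Mitol KO HSCs the highest library exceeded the lowest by 1.83 times for Mcm4 to 2.78 times for Gmnn, while the ratio of the group means ran from 1.53 to 2.33.

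**Figure D3:**
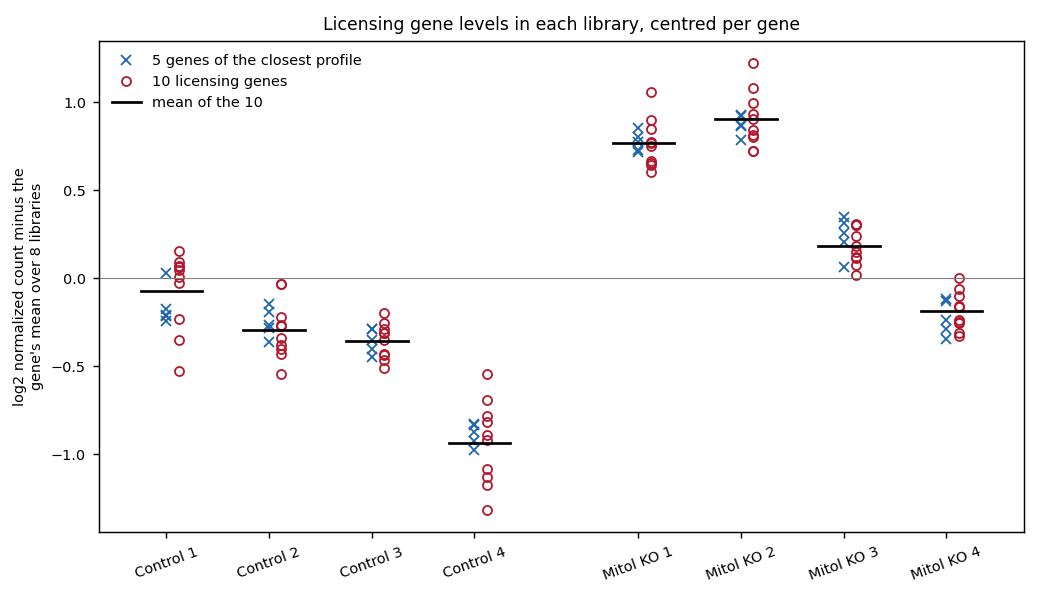
Log2 normalized count of each licensing gene (red circles) in each library, minus that gene's mean over the 8 libraries, with the mean of the 10 as a black bar. Blue crosses are the 5 other genes of closest profile. Values run from −1.32 in control replicate 4 to 1.22 in Mitol KO replicate 2. The 10 genes span −1.32 to −0.55 in control replicate 4 and −0.53 to 0.15 in control replicate 1.

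The genes whose profile over the 8 libraries was closest to the mean of the 10 were sought among 11999 other genes with at least 50 mean normalized counts. The measure was the root mean square distance between centred log2 profiles. The nearest were Chaf1a (distance 0.077), a subunit of the complex that sets histones on newly replicated DNA, Plk4 (0.087), the kinase of centriole duplication, Dna2 (0.087), a nuclease-helicase of Okazaki fragments, Wdhd1 (0.095), which ties the helicase to polymerase alpha, and AI506816 (0.097). The median distance of all genes compared was 0.587. Among the members, Mcm4 was closest to their mean at 0.066 and Gmnn farthest at 0.224, and 127 other genes were closer than Gmnn. Chaf1a was at 1181, 1353, 744 and 582 normalized counts in Mitol KO replicates 1 to 4 and at 725, 591, 558 and 399.6 in control replicates 1 to 4. Its lowest Mitol KO library thus lay within the control range, as it did for all licensing genes except Mcm10 and Cdc6.

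The 6 ring subunits are needed in equal numbers, so the balance of their transcripts within each library was compared as each gene's share of the summed counts per kb of exonic length. In control HSCs Mcm6 had the highest share (23.2% ± 0.448, SD, n = 4), then Mcm3 (20.2% ± 1.19), Mcm5 (15.7% ± 1.15), Mcm2 (15.4% ± 1.66), Mcm7 (13.1% ± 1.76) and Mcm4 (12.4% ± 0.562). Shares of neighbours in this order from Mcm5 down overlapped between libraries. The order rests on annotated length, since with the length of the canonical transcript Mcm2 has the second highest control mean per kb, after Mcm6. In Mitol KO HSCs the share of Mcm5 was 18.04% ± 0.769, above all controls in 4 of 4 libraries. Those of Mcm6 (21.2% ± 0.710) and Mcm3 (18.5% ± 0.467) were below all controls in 4 of 4. Each of these 3 differences had p = 0.0286 by the 2-sided exact permutation test, the smallest that 4 libraries against 4 allow, and 0.0571 adjusted over the 6 subunits, so that they did not pass the correction. Without control replicate 2, Mcm3, Mcm5, Mcm6 and Mcm7 each reached an adjusted p of 0.0429 in the exact permutation test. So did Mcm2, Mcm3, Mcm5 and Mcm6 without control replicate 3. With 1 library omitted the smallest p of this test is again 0.0286, so these adjusted values depend on how many of the 6 shares reach it. The shares of a library are parts of the same sum, so they are not independent of each other. With any Mitol KO library omitted, the adjusted p of this test was 0.0857 for Mcm5 and Mcm6 and 0.114 for Mcm3. Without control replicate 1 or 4, or with counts not divided by length, it stayed at 0.0571 for these 3 genes. With canonical transcript lengths, an alternative chosen after the values were seen, Mcm2, Mcm3, Mcm5 and Mcm6 each reached an adjusted p of 0.0429 in the same exact permutation test. For Mcm2, Mcm4 and Mcm7 the differences were 1.62, 0.928 and −1.32 percentage points (exact permutation test, adjusted p = 0.103, 0.103 and 0.143). The wide spread of the controls for Mcm2 and Mcm7 came with control replicate 4, where Mcm2 was at 13.05% and Mcm7 at 15.6%, against 15.4% to 16.7% and 11.4% to 13.2% in the other 3 control libraries. Group means of the 6 shares differed by at most 2.36 percentage points, while the sum of the 6 genes ran from 7589 to 25240.4 normalized counts over the libraries.

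**Figure D4:**
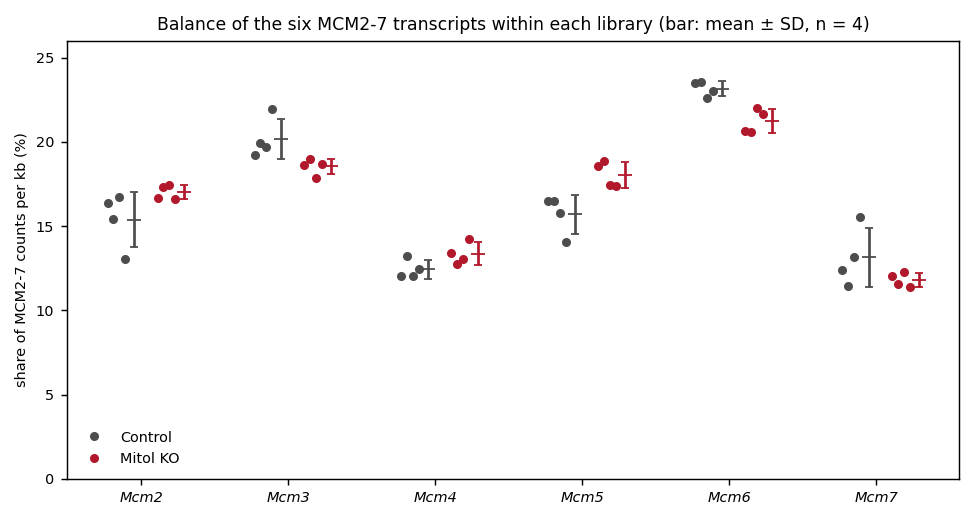
Share of each ring subunit in the summed MCM2 to MCM7 counts per kb (y axis, percent, from 0) in each control and Mitol KO library, with mean ± SD, n = 4. The Mitol KO points of Mcm5 lie above all control points, and those of Mcm3 and Mcm6 below all control points.

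Licensing factors were also set against each other within a library, where library size cancels. The log2 ratio of Cdt1 to Gmnn counts was 2.94, 2.49, 2.58 and 2.75 in Mitol KO replicates 1 to 4 and 3.34, 3.18, 2.501 and 2.700 in control replicates 1 to 4. The groups overlapped widely, with means of 2.69 ± 0.197 and 2.93 ± 0.394 (SD, n = 4, 2-sided exact permutation test, p = 0.343). Per kb of exonic length, Cdt1 was at 189 ± 52.5 normalized counts in control HSCs, and Gmnn, Cdc6 and Mcm10 were at 28.5 ± 4.75, 28.3 ± 9.48 and 24.8 ± 5.36, which did not differ beyond their spread. On the same scale the ring subunits were at 224 to 418. With canonical transcript lengths the control mean of Gmnn was 81.6 ± 13.6 and that of Cdc6 33.7 ± 11.3, so the order among these low genes depends on the length used.

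The origin recognition complex, the platform on which CDC6 acts, was measured with 6 of 6 subunits. Of these 0 were past the threshold of edgeR's test in either direction, against 8.43% of all tested genes. At an unadjusted p under 0.05, 1 of 6, Orc6, was higher with edgeR and with DESeq2, beside 13.6% and 11.7% of all genes. After adjustment DESeq2 called 0 of 6, where it called 8.19% of tested genes higher. The median log2 fold change was 0.03. Orc1, the subunit whose level follows the cell cycle most closely, was at 146, 163, 115 and 97.3 normalized counts in Mitol KO replicates 1 to 4 and at 116, 137, 128 and 131 in control replicates 1 to 4. Its log2 fold change of 0.01, which turned to −0.02 with limma-voom or with the replicate number as a block, had an interval of 2 standard errors from −0.37 to 0.38 (edgeR adjusted p = 0.988). Orc6 was at 374, 353, 277 and 149 in Mitol KO replicates and at 214, 178, 189 and 155 in control replicates, so that 3 of 4 were above the controls and the fourth below them (log2 fold change 0.63, standard error 0.24, edgeR adjusted p = 0.117). Orc2, Orc3, Orc4 and Orc5 had log2 fold changes between −0.11 and 0.25. The log2 ratio of Cdc6 to Orc1 was compared after these values were seen. It was 1.43, 1.21, 1.18 and 1.11 in Mitol KO replicates and 0.63, 0.58, 0.25 and −0.64 in control replicates, with no overlap (p = 0.0286 by the 2-sided exact permutation test, and 0.0571 after adjustment over the 2 ratios tested). Neither p-value accounts for the choice of this pair from the same values, so no conclusion is drawn from them.

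Genes that fire licensed origins and build the active helicase had a median log2 fold change of 0.82, with 15 of 15 above 0, 6 past the threshold upwards and 0 downwards. Of all tested genes, 47.7% were above 0, 4.68% were called higher and 3.75% lower. The 6 were Ticrr, Recql4, Gins1, Pole, Topbp1 and Dbf4. When single libraries were omitted, Ticrr was called in 4 of 8 fits, Recql4 and Dbf4 in 3, and Gins1, Pole and Topbp1 in 2, and Pole was not called with limma-voom (limma adjusted p = 0.0634). Ticrr, whose product treslin brings CDC45 to the ring, was at 1016, 907, 594 and 410.5 normalized counts in Mitol KO replicates 1 to 4 and at 361, 276, 409.8 and 273 in control replicates 1 to 4. It rose by 1.13 (standard error 0.25, edgeR adjusted p = 0.0204), the lowest Mitol KO library lying just above the highest control. Dbf4, the activator of the kinase CDC7 that phosphorylates the ring, was at 359, 361, 346 and 277 in Mitol KO replicates and at 224, 212, 262 and 164 in control replicates. It rose by 0.62 (standard error 0.16, edgeR adjusted p = 0.0326). Recql4 rose by 0.99 (edgeR adjusted p = 0.0246) and Gins1, one of the GINS subunits, by 0.96 (edgeR adjusted p = 0.0293). Topbp1, a scaffold of firing, rose by 0.62 and Pole, the leading-strand polymerase, by 0.92 (edgeR adjusted p = 0.0416 each). Cdc45 itself, at 1.01 (standard error 0.29, edgeR adjusted p = 0.0540), was not called, and Gins4 was at 0.03 (edgeR adjusted p = 0.943).

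The next list held 19 genes that control or act with CDT1, CDC6 and geminin, mostly through phosphorylation or ubiquitin. Of them 5 were past the threshold upwards and 0 downwards, against 4.68% and 3.75% of all tested genes. Their median log2 fold change was 0.34. Ccna2, cyclin A2, was at 1058, 1146, 725 and 505 normalized counts in Mitol KO replicates 1 to 4 and at 120, 125, 371 and 283 in control replicates 1 to 4. It rose by 1.90 (standard error 0.35, edgeR adjusted p = 0.0119). Ccne1, cyclin E1, which drives entry into S phase, was at 154, 159, 120 and 122 in Mitol KO replicates and at 40.9, 38.3, 51.8 and 46.7 in control replicates. It rose by 1.62 (standard error 0.20, edgeR adjusted p = 0.00344). Both stayed called whichever single library was omitted, in 8 of 8 fits, as did Cdc20, an activator of the anaphase-promoting complex that marks geminin for degradation (log2 fold change 1.46, edgeR adjusted p = 0.00934). Ccnf, whose product targets CDC6, rose by 1.03 (edgeR adjusted p = 0.0154, 7 of 8 fits) and Ddb1, an adaptor of the ligase that degrades CDT1 in S phase, by 0.40 (edgeR adjusted p = 0.0320, 2 of 8 fits). Pcna, the clamp on which CDT1 is marked, was at 966, 1021.5, 507 and 484 in Mitol KO replicates and at 526, 642, 650.0 and 507 in control replicates, and was not called (log2 fold change 0.34, standard error 0.22, edgeR adjusted p = 0.367). Mitol KO replicates 1 and 2 were above every control for Pcna, and replicate 4 below every control.

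Of 12 other MCM family members and partners, 10 were in the table. Of these 3 were past the threshold upwards and 0 downwards, against 4.68% and 3.75% of all tested genes. Hrob, which brings the MCM8 to MCM9 helicase to sites of recombination, rose by 1.79 (standard error 0.31, edgeR adjusted p = 0.00849), from 51.4, 46.8, 89.5 and 60.2 normalized counts in control replicates 1 to 4 to 290, 289, 182 and 114 in Mitol KO replicates 1 to 4. Clspn, a fork mediator of checkpoint signals, rose by 1.04 (edgeR adjusted p = 0.0416), and Mcmbp, a chaperone of MCM rings, by 0.57 (edgeR adjusted p = 0.0358). Both were called in 2 of 8 fits without one library, and Hrob in 8, while Clspn was not called with limma-voom (limma adjusted p = 0.0564). Mcm8 and Mcm9, relatives of the ring subunits that act in recombination, had log2 fold changes of 0.54 (edgeR adjusted p = 0.156) and −0.08 (edgeR adjusted p = 0.774). Mcidas and Gmnc, geminin relatives of multiciliated cells, were not in the count table analysed here.

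The E2F factors, whose core motif lay in 6 of the licensing promoters above, were measured with 8 of 8 genes. Of these 4 were past the threshold upwards and 0 downwards, against 4.68% and 3.75% of all tested genes. E2f2, an activator, was at 348, 309, 259 and 133 normalized counts in Mitol KO replicates 1 to 4 and at 88.4, 104, 76.3 and 52.1 in control replicates 1 to 4. It rose by 1.70 (standard error 0.29, edgeR adjusted p = 0.00844). The repressors E2f7 and E2f8 rose by 1.33 (edgeR adjusted p = 0.00634) and 1.41 (edgeR adjusted p = 0.0183), and E2f4, which acts with the pocket proteins in quiescent cells, by 0.48 (edgeR adjusted p = 0.0296). E2f2 and E2f7 were called in 8 of 8 fits without one library, E2f8 in 6 and E2f4 in 2. E2f1 was not called, at 0.54 (standard error 0.26, edgeR adjusted p = 0.210).

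**Figure D5:**
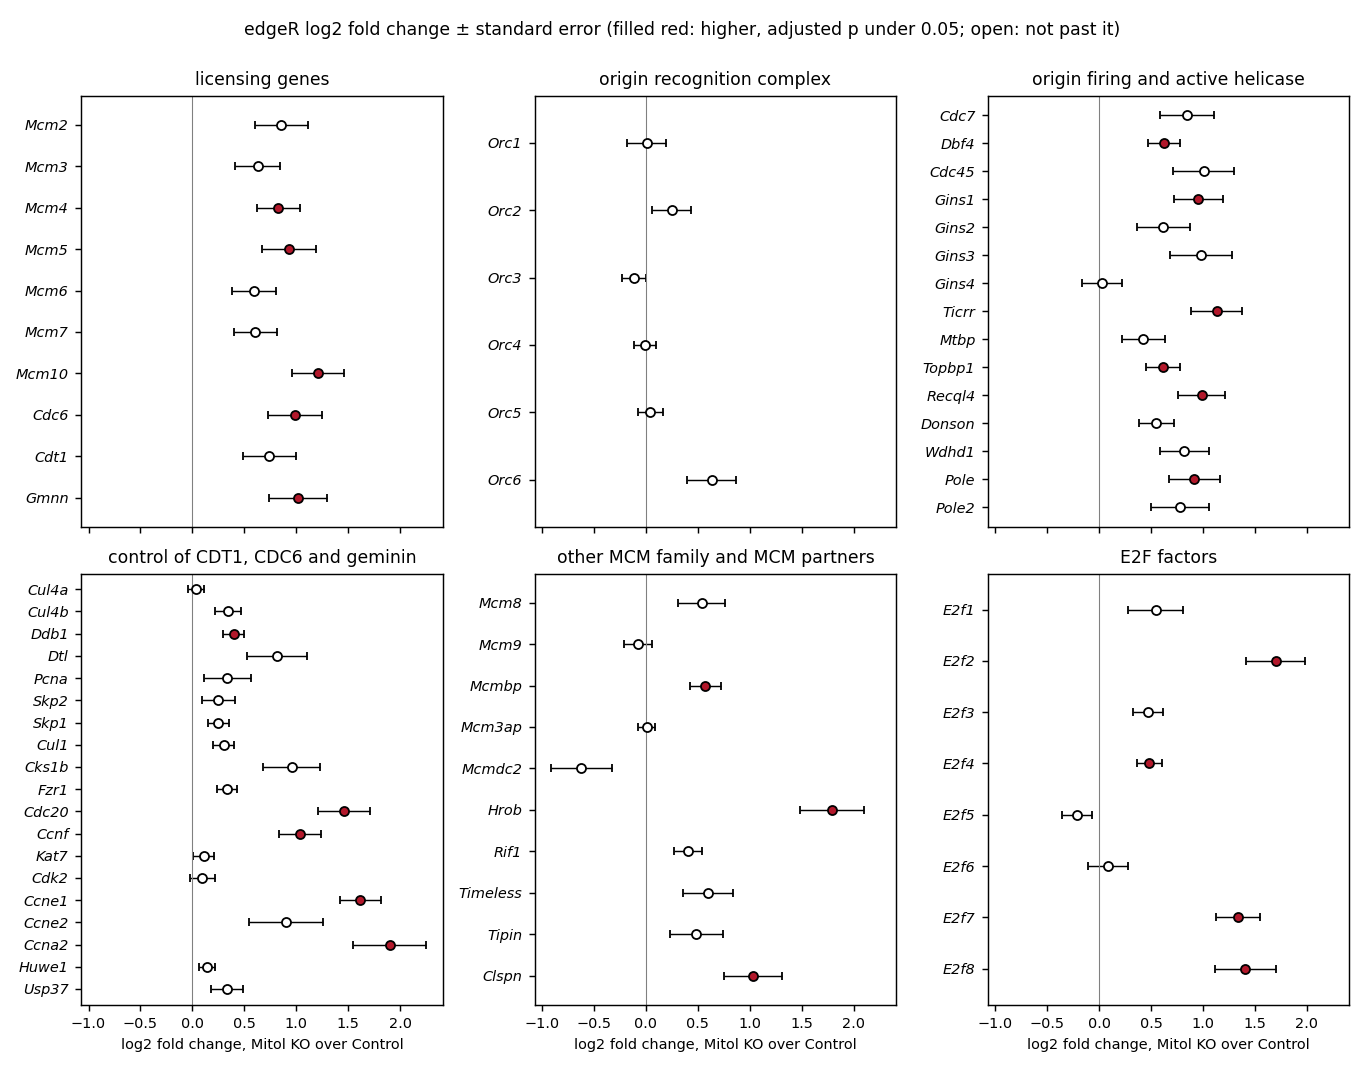
Log2 fold change of Mitol KO over control HSCs (x axis) with its standard error for the licensing genes and the lists around them, grouped by role. Filled red points are genes higher at an adjusted p under 0.05, and open points are genes not past it. The ORC subunits lie around 0 except Orc6, and no gene of these lists was lower past the threshold.

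Markers of other cells were summed per library for whole lists. Progenitor markers, 7 of 8 in the table, summed to 2964 to 3674 normalized counts in Mitol KO and 2449 to 2887 in control libraries, without overlap. All 4 tested had a log2 fold change above 0, against 47.7% of all tested genes. Of them 1, Cd48, was called higher, against 4.68%. Cd34, Flt3 and Prtn3 were at 0.01, 0.45 and 0.76 and were not called. Fcgr3, Mpo and Elane were under the filter on low counts. Erythroid markers, 11 of 11 in the table, summed to 5836 to 8573 in Mitol KO and 5156 to 6901 in control libraries. Of 7 tested, 3 were called higher, Gata1, Hbb-bt and Tfrc, against 4.68% of all tested genes. Much of the erythroid sum was Car2, which was at 3631 to 4550 and 3885 to 6021 and was not called. Gata1 was at 114, 131, 297 and 305 in Mitol KO replicates 1 to 4 and at 6.29 to 31.9 in control libraries. Its log2 fold change was 3.30 (edgeR adjusted p = 0.00381). Hbb-bs was at 1048 in Mitol KO replicate 3 and at 3.91 to 19.7 in the other 3 Mitol KO libraries. It was not called (edgeR adjusted p = 0.0663). Megakaryocyte markers, 5 of 6 in the table, summed to 2381 to 5085 in Mitol KO and 3143 to 4827 in control libraries. Pf4, 1 of 4 tested, was called lower (log2 fold change −1.69, edgeR adjusted p = 0.0202), against 3.75% of all tested genes. Itga2b was at 286.5, 351, 1111 and 1440 in Mitol KO replicates 1 to 4 and at 519 to 589 in control libraries. It was not called (log2 fold change 0.49, edgeR adjusted p = 0.476), nor were Gp9 (−0.45) and Vwf (−0.04). Neutrophil markers, 5 of 6 in the table, summed to 13.8 to 23.9 in Mitol KO and 27.7 to 86.2 in control libraries. Lymphocyte markers, 5 of 9 in the table, summed to 238 to 341 in Mitol KO and 142 to 212 in control libraries, mostly Nkg7. Nkg7, 1 of 2 tested, was called higher (log2 fold change 1.05, edgeR adjusted p = 0.0144), against 4.68% of all tested genes. Cd4, at −0.60, was not called, and Cd79a was under the filter on low counts. HSC markers, 8 of 8 in the table, summed to 22195 to 25739 in Mitol KO and 30778 to 36044 in control libraries. Of the 8, 2 were called lower, Kit and Hlf, against 3.75% of all tested genes. They had means of 7057 and 5573 in Mitol KO and 11706 and 9505 in control libraries. Slamf1 and Ly6a had log2 fold changes above 0. The part of any of these cell types in the levels of the licensing genes was not tested.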

How the data were processed

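HSCs were sorted from bone marrow, 100 cells per library, and lysed. Double-stranded cDNA was made before Nextera XT library preparation and 75 bp single-end sequencing. Per the labels and the study's methods, the authors used STAR for alignment to mm39, SAMtools for merging and Subread for counting over genes. The annotation and the strand setting are not given in the sources used here. The deposited values are raw read counts per gene, and no normalization by the authors was found in them. The table held 23094 entries, of which 1029 had no gene symbol (0.335% to 0.467% of counts) and were left out of library sizes and tests.

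Groups were taken from the sample titles, and table columns were matched to samples by the descriptions. Counts were tested with edgeR (version 4.0.16, TMM, filterByExpr, quasi-likelihood test, Benjamini-Hochberg adjustment, threshold 0.05) in R 4.3.3, comparing 4 Mitol KO with 4 Control libraries. Normalized read counts are counts divided by DESeq2 size factors. DESeq2 (1.42.0), limma-voom (limma 3.58.1), RLE size factors, no filter, the replicate number as a block, and leaving out each library were alternatives. The steps were tested on simulated data. Ratios and shares were compared by a 2-sided exact permutation test over 70 arrangements. Gene positions, lengths and promoters are from GRCm39 with GENCODE vM39, where 21434 of 22065 named genes matched, and the promoter background was 12235 tested protein-coding genes. Libraries of a group differed by more than read-counting error, a check for files deposited more than once that covers counting error only.

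The members and the gene lists were chosen with earlier results of these data known. Genes were named by rule: the 10 members, list genes past the threshold (at most 10 a list by lowest p), genes whose state the text must give, and the 5 genes of nearest profile with at least 50 mean normalized counts. Orc1, Orc6, Cdc45, Gins4, Pcna, Mcm8, Mcm9 and E2f1 were named after their values were seen.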

Additional observations from a re-analysis of the deposited data

Results flagged for a closer look

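Plk4, the centriole kinase whose profile was among those nearest to the licensing genes, had one library apart from its group. In control replicate 4 it was at 105.1 normalized counts, against 163, 171 and 175 in the other 3 control libraries, a gap of 0.834 of the group's range just past the 95% limit of Dixon's test for 4 values. Of 82 groups of values tested this was the only 1 past its limit, and chance alone is set to mark about 1 in 20. Control replicate 4 was also the lowest control library for 10 of 10 licensing genes.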

How the results depend on the processing

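The 10 licensing genes, the 18 other genes called in the pathway lists, the ratios and the shares kept their direction under every alternative run for them. Uncalled genes near 0, among them Orc1, Orc4, Gins4 and Mcm9, did not. DESeq2 called 2315 genes, 1350 higher and 965 lower, against 1386 with edgeR's test, and among the licensing genes added Mcm3 (log2 fold change 0.65), Mcm6 (0.61) and Mcm7 (0.63). With the replicate number as a block, 1652 genes and 10 of 10 licensing genes were called, adding Mcm2 (0.86), Mcm3 (0.59), Mcm6 (0.58), Mcm7 (0.56) and Cdt1 (0.70). Replicate numbers were not shown to pair the libraries, since deviations of same-numbered libraries correlated at 0.08, −0.07, 0.053 and 0.067, and not every library correlated best with its own number. With limma-voom Gmnn was not called (0.94). RLE size factors and no filter left 5 of 10 called. Canonical transcript lengths, chosen after seeing the data, took the share differences of Mcm2 (2.30 percentage points), Mcm3 (−1.20), Mcm5 (2.12) and Mcm6 (−2.22) past the threshold. Omitting control replicate 2 did so for Mcm3, Mcm5, Mcm6 and Mcm7, and omitting control replicate 3 for Mcm2, Mcm3, Mcm5 and Mcm6. Omitting any other library took no share past it. The causes were not tested. Over fits without each library in turn, 359 (without control replicate 2) to 2501 (without Mitol KO replicate 4) genes were called, 167 to 1482 higher and 192 to 1019 lower. In those fits log2 fold changes were 0.66 to 1.06 for Mcm2, 0.46 to 0.81 for Mcm3, 0.68 to 0.99 for Mcm4, 0.75 to 1.13 for Mcm5, 0.45 to 0.78 for Mcm6, 0.47 to 0.80 for Mcm7, 1.05 to 1.41 for Mcm10, 0.78 to 1.15 for Cdc6, 0.55 to 0.94 for Cdt1 and 0.73 to 1.23 for Gmnn. The log2 ratio of Cdt1 to Gmnn differed by −0.384 to −0.104 and that of Cdc6 to Orc1 by 0.744 to 1.17. Share differences ran from 0.844 to 2.07 percentage points for Mcm2, −1.98 to −1.08 for Mcm3, 0.630 to 1.19 for Mcm4, 1.81 to 2.63 for Mcm5, −2.19 to −1.71 for Mcm6 and −1.90 to −0.515 for Mcm7. Raw counts of the ring subunits were 914 to 6207 per library, and those of Gmnn as few as 57. Reads from libraries of 100 cells are not independent molecules, so these numbers bear on counting error only.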
